A study of Mus musculus with 6 samples.

Results

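The genes described here encode histone lysine methyltransferases and demethylases, the enzymes that add methyl groups to lysines of histone tails or take them off. They were chosen by symbol from the deposited count table: every gene of the KDM1 to KDM8, KMT2 to KMT5 and numbered SETD families, together with Ezh1, Ezh2, Nsd1, Nsd2, Nsd3, Ehmt1, Ehmt2, Suv39h1 and Dot1l, leaving out Kdm5c, Kdm5d and Kdm6a. The rule found 40 genes of the 27482 in the table, and 38 of the 40 passed the filter on low counts. The table holds bulk RNA-seq of 6 libraries labelled as hearts of male mice, 3 given AAV9-hFNDC4 (an adeno-associated virus vector for overexpression of FNDC4, a secreted protein with a fibronectin type III domain) and 3 given the control vector AAV9-CTRL. All mice of both groups had ischemia/reperfusion surgery (I/R, a passing block of blood flow to the heart), and hearts were taken 24 h after it. The sources used here do not give the promoter that drives the vector, the age and strain of the mice, or whether each library came from its own mouse. The p-values thus cover only how much these libraries vary, and that variation may be technical.

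Methylation of histone lysines acts as a code that other proteins read. Methylation of H3K4 by the KMT2 and SETD1 enzymes marks active enhancers and promoters. H3K36 methylation by SETD2 and H3K79 methylation by DOT1L mark transcribed gene bodies. The NSD enzymes also methylate H3K36. Methylation of H3K9 (SUV39H1, EHMT1, EHMT2) and H3K27 (EZH1, EZH2) marks silenced chromatin. Removal falls to LSD1-type enzymes, which use FAD, and to Jumonji-domain enzymes, which need oxygen, iron and 2-oxoglutarate; this oxygen need has made the Jumonji group a subject of hypoxia research, and KDM3A and KDM4B are known HIF1A target genes. EZH1 is known as the form of non-dividing adult tissue, and EZH2 as the form of dividing cells.

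At similar depth (32975817 to 36074046 counts per library), 18717 to 18863 genes were detected in AAV9-hFNDC4 libraries and 20431 to 20870 in AAV9-CTRL libraries. Most defining heart muscle transcripts were close to absent. Of 16 cardiomyocyte markers 3 reached a mean of 1 CPM (counts scaled to a common library size), Tnnt2 at 44.9, Ttn at 4.26 and Myh7 at 1.57 CPM, while Myh6 averaged 0.277 CPM and Nkx2-5, Pln and Myl7 had 0 counts. Their sum, mostly Tnnt2, was 45.6 to 46.9 CPM in AAV9-hFNDC4 libraries and 59.6 to 59.8 CPM in AAV9-CTRL libraries. Of 9 endothelial markers 3 reached 1 CPM, and of 10 leukocyte markers 2, with Ptprc at 0.0912 CPM. Most of these levels go against the tissue label, so no value below is assigned to heart muscle. Other marker sums also lay apart: fibroblast markers (9 in the table, 5 of them at 1 CPM or more, with Fn1 the largest at a mean of 5467 against 1889.9 CPM and with Tcf21, Lum and Dcn near 0) summed to 8028 to 8850 CPM in AAV9-hFNDC4 libraries against 3800 to 4035 CPM, mural cell markers (6, of which Pdgfrb and Cspg4 reached 1 CPM) to 531 to 594 against 297 to 359 CPM, and leukocyte markers (10, mostly Cd68 at 11.7 against 27.9 CPM and Lyz2 at 7.04 against 7.62 CPM) to 18.5 to 21.1 against 36.8 to 44.4 CPM. The mural sum was carried by Pdgfrb and Cspg4. The mural markers Tagln (0.163 against 0.575 CPM), Myh11 (0.118 against 0.464), Acta2 (0.154 against 0.314) and Rgs5 (0.0631 against 0.0937) were near 0 and went the other way. The part of all these marker sums in the results below was not tested. In bulk RNA fewer cells of a type and less RNA per cell cannot be told apart. Fndc4 itself was not analysed here.

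Of the 38 tested genes, 16 were higher and 4 lower in AAV9-hFNDC4 libraries, and 18 did not pass (edgeR quasi-likelihood test, Benjamini-Hochberg adjusted p under 0.05 over all 14663 genes tested, here called). That is 42.1% higher, against 22.1% of all tested genes, and 10.5% lower, against 25.0%. The median log2 fold change of the 38 was 0.26, and that of all tested genes 0.0073. The largest increases were those of the H3K9/H3K36 demethylase gene Kdm4b, the KMT2-family reader gene Kmt2e and the H3K4 methyltransferase gene Kmt2a, each near 1 on the log2 scale; the 4 lower genes were Kdm8, Kmt5a, Setd6 and Ezh2. The CPM ranges of the groups did not overlap for any of the 20 called genes, nor for 5 genes that were not called, together 25 of 38 (65.8%, against 56.6% of all tested genes).

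The libraries did not contribute alike, and the part of this in the results was not tested. AAV9-CTRL replicate 2 held the lowest CPM of all 6 libraries for 22 of the 38 tested genes and for 11 of the 16 higher genes. The 40 genes summed to 2790 CPM in it, against 3304 and 3016 CPM in the other AAV9-CTRL libraries and 3586, 3948 and 3853 CPM in AAV9-hFNDC4 replicates 1, 2 and 3. Without AAV9-CTRL replicate 2 the counts were again 16 higher and 4 lower. Of all genes called in that fit 47.3% were higher. The median log2 fold change of the 38 genes was 0.18. The higher genes were not all the same: Ehmt1 no longer passed (edgeR adjusted p = 0.0833) and Kmt5c did (0.0463). Of the 20 called genes, 8 passed in all 16 alternatives run: Kmt2a, Setd1b, Kmt2e, Setd5, Kdm4a and Kdm4b, which were higher, and Kmt5a and Kdm8, which were lower.

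Exon length moved with these values. The 38 genes had a median exon length of 6633 bp against 3135 bp over the 13561 tested genes with an annotated length, and fold changes increased with length both across all tested genes (Spearman rho 0.354) and across the 38 (0.593), given as a description since all points come from the same 6 libraries. Among the 19 longer genes 11 were higher and the other 8 did not pass, with a median log2 fold change of 0.50; among the 19 shorter ones 5 were higher and 4 lower, and the median was 0.037. Tested genes of any function with an exon length between 4399 and 9053 bp, the middle of the members' range, numbered 3480, of which 38.0% were higher and 12.3% lower, with a median log2 fold change of 0.24. The shares over all 38 genes, 42.1% higher and 10.5% lower, were close to these. Lengths were only partly alike in this comparison. The 4 lower genes, Setd6 (1707 bp), Kdm8 (2389 bp), Ezh2 (2802 bp) and Kmt5a (2990 bp), are all shorter than 4399 bp. When a length trend was fitted in each library and taken out, 9 of the 38 genes were higher and 8 lower (23.7% and 21.1%, against 21.7% and 20.7% of all tested genes), and their median was -0.0041 against 0.045 over all tested genes. All 9 were among the 16, and 3 of the 4 lower genes stayed lower, joined by Kdm3a, Kmt2b, Setd1a, Setd2 and Kdm5a, of which Setd1a, Setd2 and Kdm5a did not pass when a replicate block was added. What sets this trend was not tested. Below, library values follow the order of replicates 1, 2 and 3, with AAV9-hFNDC4 first; values given with an SE, as length-corrected or after "rose by" or "lower with" are log2 fold changes of AAV9-hFNDC4 over AAV9-CTRL.

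**Figure D1:**
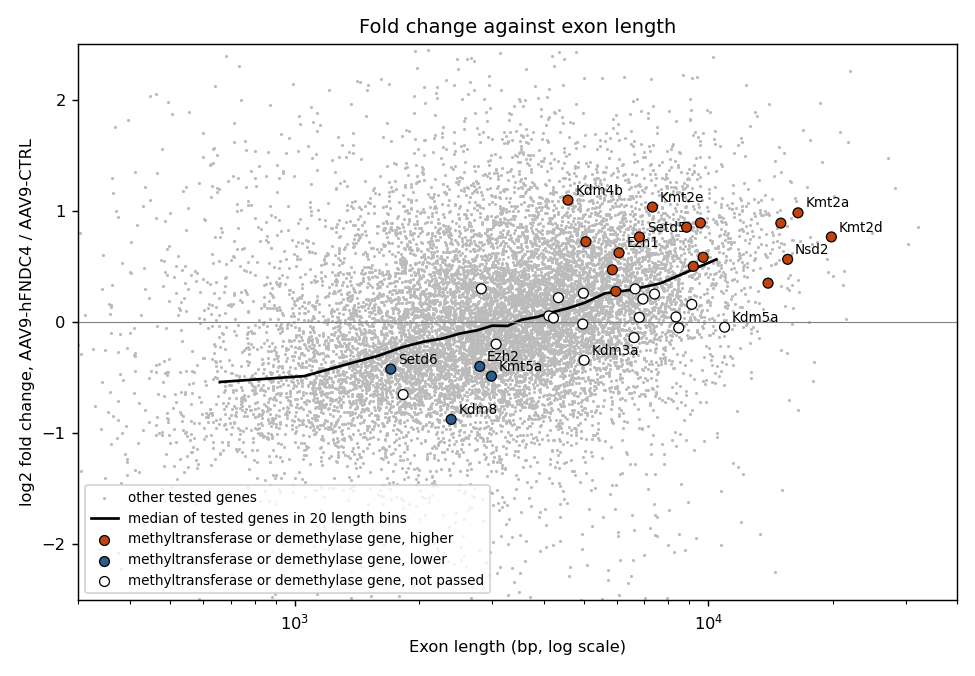
Log2 fold change (AAV9-hFNDC4 over AAV9-CTRL, vertical axis) against exon length in bp (log scale) for 13523 other tested genes (grey, 367 of them outside the axes) and the 38 tested methyltransferase and demethylase genes (red higher, blue lower, white not passed); the black line is the median of tested genes in 20 length bins. The line rises with length, and the longest genes such as Kmt2a and Kmt2d sit to the right and high.

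**Figure D2:**
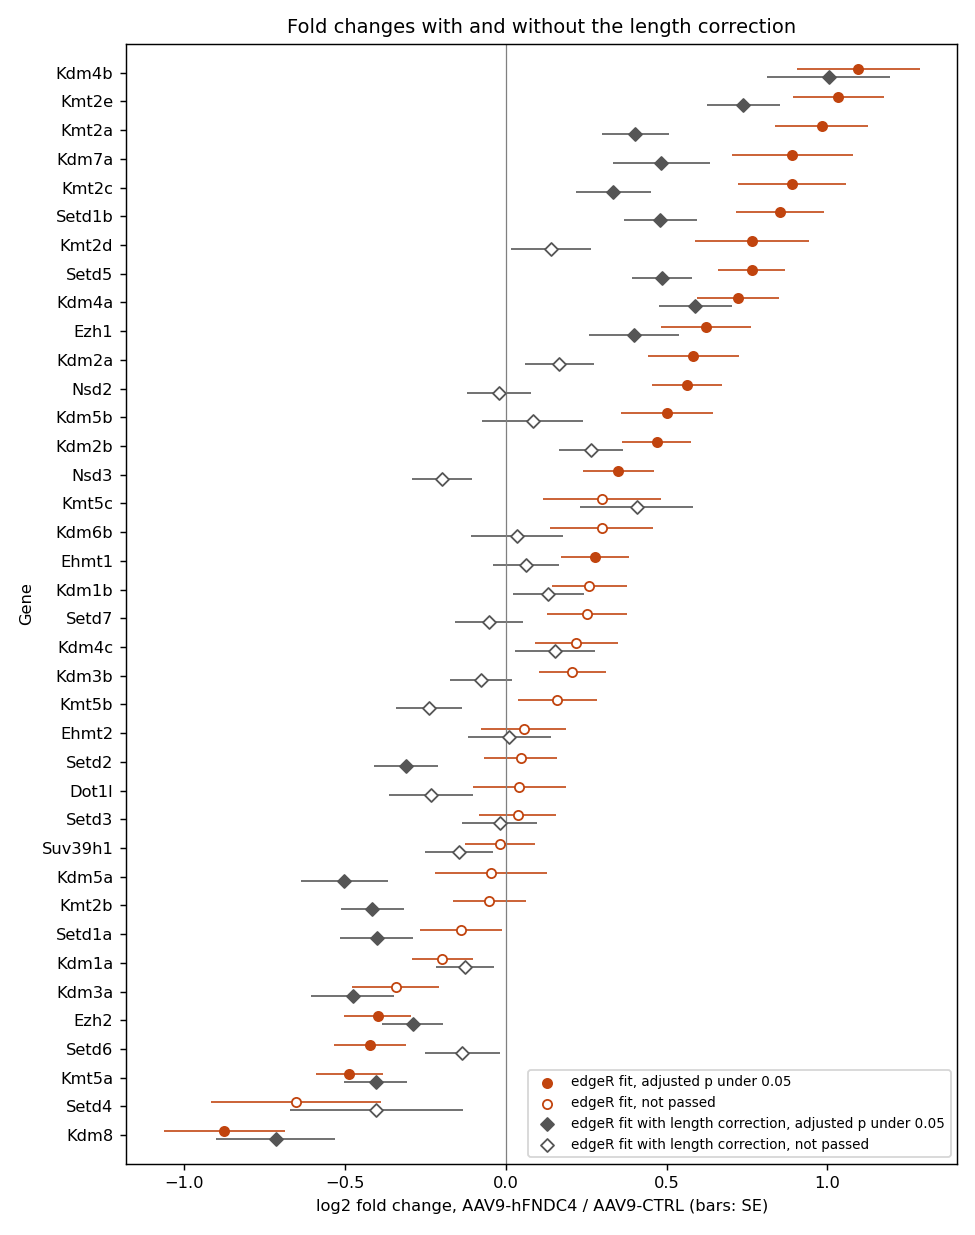
Log2 fold change of each of the 38 tested genes with its SE, from the edgeR fit (red circles) and from the fit with the length correction (grey diamonds); filled symbols passed an adjusted p of 0.05. In the first fit 16 genes are filled on the higher side and 4 on the lower, and with the correction 9 and 8.

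The KMT2 and SETD1 genes, the catalytic cores of the COMPASS-type complexes that methylate H3K4, split within the family. Kmt2a (chromosome 9, 44803355 to 44881296, minus strand, GENCODE vM21 on GRCm38, as for all gene positions here) stood at 161, 169.8 and 186 CPM in the AAV9-hFNDC4 libraries and at 109, 71.9 and 81.2 CPM in the AAV9-CTRL libraries. The groups lay well apart, with AAV9-CTRL replicate 2 the lowest, and Kmt2a rose (log2 fold change 0.98, SE 0.15, edgeR adjusted p = 0.000274, and 0.40 length-corrected, adjusted p = 0.00941). Kmt2c and Kmt2d encode the enhancer methyltransferases MLL3 and MLL4. Kmt2c measured 132, 163 and 156 CPM against 103, 60.9 and 79.1 CPM, and rose (log2 fold change 0.89, SE 0.17, edgeR adjusted p = 0.00118, and 0.33 length-corrected). Kmt2d measured 150.4, 169 and 179 CPM against 129, 71.2 and 93.0 CPM, with a log2 fold change of 0.77, SE 0.18 (edgeR adjusted p = 0.00448) that was 0.14 with the length correction and no longer passed (adjusted p = 0.385). For both genes AAV9-CTRL replicate 2 was the lowest library and AAV9-CTRL replicate 1 the highest of the controls. Setd1b (chromosome 5, 123142193 to 123168629, plus strand), with 72.7, 69.4 and 74.2 CPM against 48.4, 33.2 and 38.1 CPM, rose by 0.85 (SE 0.14, edgeR adjusted p = 0.000446, and 0.48 length-corrected).

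Kmt2b and Setd1a, the closest paralogs of Kmt2a and Setd1b, did not pass. Kmt2b stood at 80.4, 88.3 and 89.0 CPM against 98.2, 77.8 and 91.2 CPM, with overlapping groups and a log2 fold change of -0.05, SE 0.11 (-0.42 length-corrected, edgeR adjusted p = 0.00582). Setd1a stood at 77.5, 87.6 and 79.2 CPM against 101, 73.5 and 94.6 CPM (-0.14, SE 0.13, and -0.40 length-corrected, edgeR adjusted p = 0.0152). Of its exon bases 53.7% are shared with other annotated genes on either strand, so its reads may not all have been told apart. Ratios within a library need no scaling between libraries. They do keep the trend with length where the genes differ in it (Kmt2a 16470 bp, Kmt2b 8481 bp). For 12 of the 14 gene pairs computed the ranges of the groups did not overlap. No such share was computed over other gene pairs, and 56.6% of single tested genes did not overlap either. The pairs, and which gene of each was divided by the other, were chosen by hand. In each the mean ratio was higher in AAV9-hFNDC4 libraries, a direction that depends on that choice and is no result in itself. The count ratio of Kmt2a to Kmt2b was 2.01, 1.92 and 2.09 in AAV9-hFNDC4 libraries and 1.11, 0.924 and 0.890 in AAV9-CTRL libraries, and that of Setd1b to Setd1a was 0.938, 0.792 and 0.937 against 0.479, 0.452 and 0.403. Neither pair of ranges overlapped. Setd7, a monomethyltransferase of H3K4 and of other proteins, had 86.1, 88.4 and 92.1 CPM against 86.1, 62.4 and 75.3 CPM and did not pass (0.25, SE 0.12, edgeR adjusted p = 0.116); without AAV9-CTRL replicate 1 it passed (adjusted p = 0.0262).

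**Figure D3:**
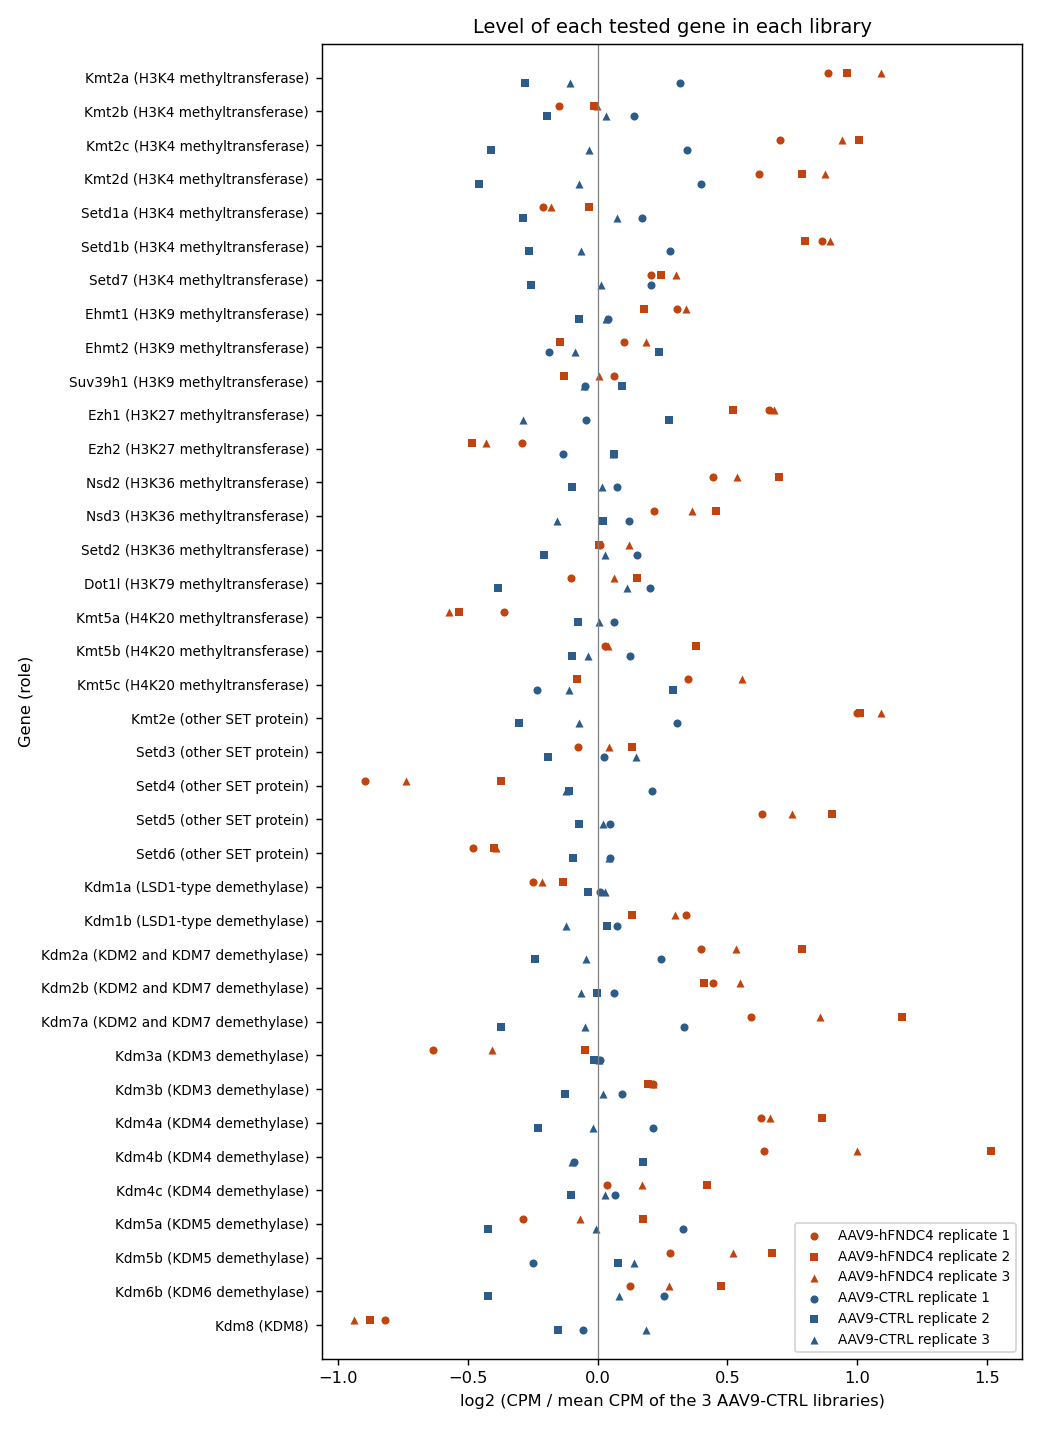
Log2 ratio of each tested gene's CPM to the mean CPM of the 3 AAV9-CTRL libraries (horizontal axis), 1 point per library (red AAV9-hFNDC4, blue AAV9-CTRL; the marker shape is the replicate number), with genes ordered by role. Kmt2a, Kmt2c, Kmt2e, Setd1b and Kdm4b show all red points to the right of the blue ones, while Ezh2, Kmt5a, Setd6 and Kdm8 show them to the left.

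The H3K27 methyltransferases changed in opposite directions. EZH1 and EZH2 are the alternative catalytic subunits of Polycomb repressive complex 2 (PRC2), EZH2 being the form with the stronger methyltransferase activity. Ezh1 (chromosome 11, 101191115 to 101226463, minus strand) stood at 74.6, 67.7 and 75.6 CPM in AAV9-hFNDC4 libraries and 45.7, 57.1 and 38.7 CPM in AAV9-CTRL libraries, and rose by 0.62 (SE 0.14, edgeR adjusted p = 0.00354, and 0.40 length-corrected, adjusted p = 0.0382). Ezh2 (chromosome 6, 47530139 to 47595341, minus strand) stood at 136, 119 and 123 CPM and 151, 174 and 173 CPM, and was lower with -0.40 (SE 0.10, edgeR adjusted p = 0.00815, and -0.29 length-corrected, adjusted p = 0.0294). Neither gene's groups overlapped. The count ratio of Ezh1 to Ezh2 was 0.550, 0.569 and 0.613 in AAV9-hFNDC4 libraries against 0.302, 0.329 and 0.224 in AAV9-CTRL libraries. Per kilobase of exon, Ezh2 remained above Ezh1 in both groups, at a mean level of 44.9 against 11.9 CPM per kb with AAV9-hFNDC4 and 59.2 against 7.76 with AAV9-CTRL.

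Sequences before the RefSeq starts of this pair are shown because the paralogs moved apart, with those of Kdm3a and Kdm4a, Jumonji genes of which Kdm4a rose and Kdm3a lay below the controls. Each is the 250 bases before the most upstream start that RefSeq annotates on GRCm38.p6, 5′ to 3′ on the minus strand on which all 4 genes lie: Ezh1 at chr11:101226464-101226713, Ezh2 at chr6:47595031-47595280, Kdm3a at chr6:71632918-71633167 and Kdm4a at chr4:118180044-118180293. By GENCODE vM21 the gene of Ezh2 extends past its whole window and that of Kdm3a (end 71632990) into part of its window, so these are upstream of the RefSeq start only. Capitals mark matches, on either strand, to ACGTG or GCGTG (the core letters of a HIF1A binding site) or to CCAAT (the NF-Y box).
Ezh1: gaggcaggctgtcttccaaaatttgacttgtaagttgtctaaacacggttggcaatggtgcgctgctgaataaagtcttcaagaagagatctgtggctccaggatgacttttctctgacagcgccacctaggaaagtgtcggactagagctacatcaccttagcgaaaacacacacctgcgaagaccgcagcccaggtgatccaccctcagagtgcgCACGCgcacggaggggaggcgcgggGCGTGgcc
Ezh2: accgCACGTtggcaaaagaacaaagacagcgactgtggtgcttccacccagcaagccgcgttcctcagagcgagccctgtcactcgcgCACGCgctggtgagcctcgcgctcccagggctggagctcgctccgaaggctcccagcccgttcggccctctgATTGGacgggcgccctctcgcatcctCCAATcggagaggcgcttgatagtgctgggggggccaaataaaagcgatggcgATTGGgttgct
Kdm3a: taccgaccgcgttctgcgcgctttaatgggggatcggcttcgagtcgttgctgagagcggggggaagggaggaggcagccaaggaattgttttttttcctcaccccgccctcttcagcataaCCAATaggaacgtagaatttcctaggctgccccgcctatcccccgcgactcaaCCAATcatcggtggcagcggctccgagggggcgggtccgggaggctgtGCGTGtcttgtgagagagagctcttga
Kdm4a: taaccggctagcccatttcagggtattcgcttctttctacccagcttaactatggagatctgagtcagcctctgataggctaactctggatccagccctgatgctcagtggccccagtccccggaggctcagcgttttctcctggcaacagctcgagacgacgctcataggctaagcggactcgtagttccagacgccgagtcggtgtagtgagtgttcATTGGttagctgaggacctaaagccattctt
Ezh1 held 2 GCGTG matches and no CCAAT. Ezh2 held 3 CCAAT, 1 ACGTG and 1 GCGTG, Kdm3a 2 CCAAT and 1 GCGTG, and Kdm4a 1 CCAAT alone. Promoter windows were listed for 29 of the 40 genes (41 windows). ACGTG or GCGTG was present in 63.4% of these windows, against 38.6% of all 32851 windows of the table, and CCAAT in 39.0% against 33.8%. Taken apart, GCGTG was in 56.1% against 28.2%, and ACGTG in 22.0% against 16.6%. Windows of like GC content or of expressed genes only were not compared. A match describes the letters and is not a bound site.

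**Figure D4:**
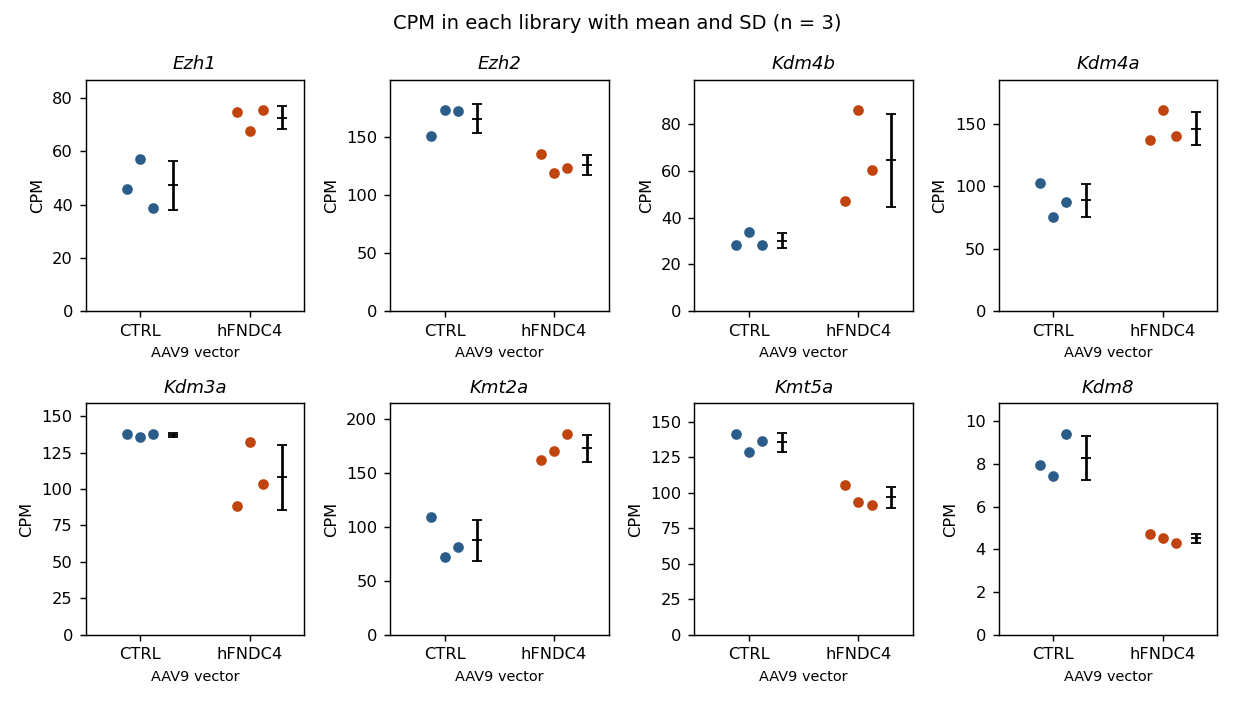
CPM of 8 genes in each library (points; blue AAV9-CTRL, red AAV9-hFNDC4) with the mean and SD of 3 libraries (black), each panel with its own axis from 0. Ezh1 and Ezh2 lie on opposite sides, and AAV9-hFNDC4 replicate 2 is the highest of its group for Kdm4b and Kdm3a.

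Of the 3 H3K9 methyltransferase genes 1 passed, with a small difference. Ehmt1, which encodes GLP, measured 56.0, 51.3 and 57.4 CPM against 46.6, 43.1 and 46.3 CPM. Its log2 fold change of 0.28, SE 0.11 passed narrowly (edgeR adjusted p = 0.0484). Leaving out replicate 1 or 3 of AAV9-hFNDC4, or replicate 2 or 3 of AAV9-CTRL, ended the call (edgeR adjusted p over the leave-one-out fits 0.0361 to 0.167), as did the length correction (0.06), RLE scaling (0.0558), no low-count filter (0.0775), DESeq2 (0.0704) and a replicate block (0.119, all 4 adjusted p). Its partner Ehmt2 (G9a), the highest of the 40 genes per kilobase, had overlapping groups (249.6, 210.4 and 264 against 204, 274 and 219 CPM, log2 fold change 0.06, SE 0.13). Count ratios of Ehmt1 to Ehmt2 overlapped between the groups (0.225, 0.244 and 0.217 against 0.229, 0.157 and 0.211). Groups also overlapped for Suv39h1, the heterochromatin enzyme (54.8, 48.0 and 52.8 against 50.8, 56.1 and 50.6 CPM, log2 fold change -0.02, SE 0.11).

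Of the H3K36 methyltransferase genes, Nsd2 and Nsd3, which encode dimethylating enzymes, were higher before the length correction and not after it. Nsd2 measured 92.7, 110.4 and 98.6 CPM against 71.7, 63.5 and 68.8 CPM (log2 fold change 0.56, SE 0.11, edgeR adjusted p = 0.00138, and -0.02 length-corrected, adjusted p = 0.869). Nsd3 measured 124, 146 and 137 CPM against 115, 108 and 95.4 CPM (log2 fold change 0.35, SE 0.11, edgeR adjusted p = 0.0220, and -0.20 length-corrected). At 15546 and 13939 bp they are among the longest genes of the set. Nsd3 also missed the threshold when AAV9-hFNDC4 replicate 2, its replicate 3 or AAV9-CTRL replicate 3 was left out (edgeR adjusted p = 0.0658, 0.0677 and 0.112) or a replicate block was added (0.0647). Setd2, whose enzyme adds the last methyl group to H3K36, had overlapping groups at 114, 114 and 124 against 126, 98.6 and 116 CPM (log2 fold change 0.05, SE 0.11, and -0.31 length-corrected, edgeR adjusted p = 0.0268).

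Nsd1, the remaining member of that family, was nearly absent from every library, with 9, 1 and 7 counts in the AAV9-hFNDC4 libraries and 2, 7 and 3 in the AAV9-CTRL libraries. Its exons span 13636 bp (chromosome 13, 55209782 to 55318325, plus strand) and share 0 bases with another gene of the annotation. Nsd2 and Nsd3 had 1993 to 5266 counts in the same libraries. Kdm4d was the other gene under the filter, with 2, 1 and 7 counts against 7, 0 and 0. Neither was tested.

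Dot1l, the H3K79 methyltransferase gene, measured 115, 137 and 129 CPM against 142, 94.5 and 133 CPM and did not pass (0.04, SE 0.15, edgeR adjusted p = 0.833). The H4K20 genes differed from each other. Kmt5a (chromosome 5, 124439930 to 124462308, plus strand), the monomethyltransferase that acts in the cell cycle, measured 105, 93.4 and 91.0 CPM against 141, 129 and 136 CPM, with every AAV9-hFNDC4 library below every control, and was lower with -0.49 (SE 0.10, edgeR adjusted p = 0.00248, and -0.41 length-corrected, adjusted p = 0.00703). Kmt5b and Kmt5c, which add the further methyl groups, did not pass. Kmt5b had 78.3, 99.6 and 78.9 CPM against 83.6, 71.7 and 74.7 CPM (0.16, SE 0.12), and Kmt5c had 22.1, 16.4 and 25.5 CPM against 14.8, 21.3 and 16.1 CPM (0.30, SE 0.18), the latter passing without AAV9-CTRL replicate 2 (edgeR adjusted p = 0.0463). The count ratio of Kmt5b to Kmt5a was 0.743, 1.07 and 0.867 against 0.591, 0.558 and 0.550, without overlap.

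Among SET-domain genes with no settled histone target, Kmt2e and Setd5 rose. Kmt2e (chromosome 5, 23434441 to 23504235, plus strand), whose protein binds methylated H3K4 and lacks known methyltransferase activity, had the highest CPM of the set in AAV9-hFNDC4 libraries, and in the mean of both groups, at 406, 409 and 432 against 251, 165 and 193 CPM. It rose by 1.03 (SE 0.14, edgeR adjusted p = 0.000171, and 0.74 length-corrected, adjusted p = 0.000542); 13.3% of its exon bases are shared with Srpk2. Setd5 (chromosome 6, 113077365 to 113153435, plus strand), a chromatin regulator linked to co-repressor complexes, measured 193, 233 and 209 CPM against 129, 119 and 126 CPM. Its groups lay far apart relative to their spread, and it rose by 0.77 (SE 0.10, edgeR adjusted p = 0.000168, and 0.49 length-corrected, adjusted p = 0.00191). Setd6, which methylates the NF-kB subunit RELA, was lower at 22.4, 23.7 and 23.8 against 32.3, 29.3 and 32.3 CPM (-0.42, SE 0.11, edgeR adjusted p = 0.00864), but at 1707 bp it is the shortest gene of the set, and the length-corrected value missed the threshold (-0.14, adjusted p = 0.371). Setd3, the actin histidine methyltransferase gene, had overlapping groups at 47.8, 55.1 and 51.9 against 51.2, 44.0 and 55.7 CPM (0.04, SE 0.12). Setd4 was low at 1.92, 2.77 and 2.15 against 4.14, 3.31 and 3.29 CPM and missed the threshold (-0.65, SE 0.26, edgeR adjusted p = 0.0615); it passed without AAV9-hFNDC4 replicate 2 (0.0414).

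Demethylase genes numbered 15, of which 14 were tested, 6 were higher and 1 was lower (3 and 3 with the length correction). The FAD-dependent genes did not pass. Kdm1a, which encodes LSD1, had 109, 118 and 112 CPM against 130.4, 126 and 132 CPM (-0.20, SE 0.09, edgeR adjusted p = 0.107), and Kdm1b (LSD2) had 34.5, 29.8 and 33.4 CPM against 28.7, 27.9 and 25.0 CPM (0.26, SE 0.12, edgeR adjusted p = 0.0874). The groups of each did not overlap, on opposite sides, and the count ratio of Kdm1b to Kdm1a was 0.316, 0.252 and 0.299 against 0.220, 0.221 and 0.189.

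The KDM2 and KDM7 genes, Jumonji enzymes of H3K36 and of H3K9 and H3K27, were all 3 higher. Kdm7a measured 30.5, 45.7 and 36.7 CPM against 25.5, 15.7 and 19.6 CPM and rose by 0.89 (SE 0.19, edgeR adjusted p = 0.00249, and 0.48 length-corrected, adjusted p = 0.0235). Kdm2a measured 119, 156 and 131 CPM against 107, 76.7 and 87.7 CPM (log2 fold change 0.58, SE 0.14, edgeR adjusted p = 0.00552), and Kdm2b, a subunit of a variant PRC1 complex that binds CpG islands, 43.6, 42.6 and 47.0 CPM against 33.5, 32.0 and 30.7 CPM (0.47, SE 0.11, edgeR adjusted p = 0.00389). With the length correction these were 0.17 and 0.27 and did not pass (adjusted p = 0.230 and 0.0504), and 16.2% of the exon bases of Kdm2b are shared with other genes.

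In the KDM4 group, enzymes of H3K9 and H3K36, Kdm4b and Kdm4a rose and Kdm4c did not pass. Kdm4b (chromosome 17, 56326062 to 56402870, plus strand) measured 47.0, 86.2 and 60.4 CPM in AAV9-hFNDC4 libraries and 28.3, 34.0 and 28.2 CPM in AAV9-CTRL libraries. AAV9-hFNDC4 replicate 2 was the highest, and the lowest AAV9-hFNDC4 library was above every control. The log2 fold change of Kdm4b was 1.10, SE 0.19 (edgeR adjusted p = 0.000763), or 2.01-fold with the length correction, and 0.84 on the log2 scale without AAV9-hFNDC4 replicate 2 (adjusted p = 0.00127). Kdm4a (chromosome 4, 118136957 to 118180043, minus strand) measured 137, 161 and 140.1 CPM against 103, 75.4 and 87.5 CPM and rose by 0.72 (SE 0.13, edgeR adjusted p = 0.000794, and 0.59 length-corrected). Kdm4c had 25.7, 33.6 and 28.3 CPM against 26.3, 23.4 and 25.6 CPM (0.22, SE 0.13, edgeR adjusted p = 0.188). The count ratio of Kdm4b to Kdm4c was 1.83, 2.56 and 2.13 against 1.08, 1.46 and 1.10, without overlap.

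Kdm3a, an H3K9 demethylase gene that like Kdm4b is known to respond to HIF1A, did not pass. It stood at 88.5, 133 and 103 CPM in AAV9-hFNDC4 libraries and at 138, 136 and 138 CPM in AAV9-CTRL libraries, which were close together. All 3 AAV9-hFNDC4 libraries were below the controls, with replicate 2 only just so, and the log2 fold change of -0.34, SE 0.14 missed the threshold (edgeR adjusted p = 0.0562). Leaving out AAV9-hFNDC4 replicate 2 brought it past (-0.51, adjusted p = 0.00486), and so did the length correction (-0.48, adjusted p = 0.0122). The count ratio of Kdm4b to Kdm3a was 0.532, 0.650 and 0.584 in AAV9-hFNDC4 libraries and 0.205, 0.251 and 0.205 in AAV9-CTRL libraries. Kdm3b, its paralog, had 60.3, 59.4 and 60.3 CPM against 55.5, 47.7 and 52.8 CPM (0.21, SE 0.10, edgeR adjusted p = 0.126).

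Of the H3K4 demethylase genes of the KDM5 group, Kdm5b measured 30.3, 39.8 and 35.9 CPM against 21.0, 26.4 and 27.5 CPM and was higher before the length correction (0.50, SE 0.14, edgeR adjusted p = 0.0127) and not after it (0.08, adjusted p = 0.698). Kdm5a, with 97.5, 134 and 114 CPM against 149, 88.7 and 119 CPM, overlapped widely (-0.05, SE 0.18, and -0.50 length-corrected, edgeR adjusted p = 0.0114). Count ratios of Kdm5b to Kdm5a overlapped between the groups (0.311, 0.296 and 0.316 against 0.141, 0.297 and 0.232). Kdm6b, the H3K27 demethylase gene that inflammatory signals are known to induce, had 104, 133 and 116 CPM against 114, 71.5 and 101 CPM. AAV9-CTRL replicate 2 was the lowest library, and the log2 fold change of 0.30, SE 0.16 did not pass (edgeR adjusted p = 0.148) unless AAV9-CTRL replicate 1 was left out (0.0431), every gene was kept or GC content was corrected for. Kdm8 (chromosome 7, 125444676 to 125462269, plus strand), a Jumonji hydroxylase gene first described as an H3K36 demethylase, was the member with the strongest decrease. It measured 4.70, 4.52 and 4.32 CPM against 7.96, 7.46 and 9.42 CPM and was lower with -0.88 (SE 0.19, edgeR adjusted p = 0.00281, and -0.72 length-corrected, adjusted p = 0.00946).

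Levels were compared between genes per kilobase of exon, as the mean of both groups. Ehmt2 (57.6 CPM per kb), Ezh2 (52.1), Kmt2e (42.2), Kdm1a (39.6) and Kmt5a (38.8) were the most abundant. The least abundant of the tested genes were Setd4 (1.60), Kdm8 (2.68) and Kdm7a (3.03), so the decrease of Kdm8 is that of a low transcript.

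Partners of these enzymes were read together with other chromatin enzymes, methyl donor genes and proliferation genes, in lists of 161 genes in all, of which 155 were tested, 40 were higher and 34 lower (25.8% and 21.9%, against 22.1% and 25.0% of all tested genes). Their median log2 fold change was 0.099, and 34 were higher and 28 lower with the length correction. The values in parentheses are again log2 fold changes, and each gene called higher or lower passed the edgeR threshold. In contrast to Kmt2a and Kmt2c, the shared-core genes of the COMPASS-type complexes Wdr5 (90.3 ± 2.40 against 138 ± 14.4 CPM, SD, n = 3, log2 fold change -0.62, SE 0.11), Dpy30 (-0.71, SE 0.11) and Ash2l (-0.26, SE 0.10) were lower. Rbbp5 of the same core did not pass. The edgeR adjusted p of Ash2l reached 0.155 over the leave-one-out fits. Of 17 tested partners, 4 were higher and 6 lower, with Cxxc1, Bod1 and Kansl2 the other lower genes (-0.47, -0.93 and -1.12) and Ncoa6, Bod1l, Kansl1 and Phf20 the higher ones (0.73, 0.68, 0.47 and 0.56). All 6 lower genes also passed with the length correction, whereas Bod1l (0.24) and Kansl1 (0.22) did not. With the replicate block added to that correction, 2 of the list were higher and 3 lower. Upper-quartile scaling called 7 higher.

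Of 9 tested PRC2 partners 3 were higher and 2 lower. Eed, the subunit that reads H3K27 methylation, was lower (48.6 ± 5.03 against 77.8 ± 9.62 CPM, SD, n = 3, log2 fold change -0.68, SE 0.13) as was Rbbp7 (-0.43, SE 0.10). Suz12 (0.35, SE 0.11), Jarid2 (0.99, SE 0.26) and Aebp2 (0.28, SE 0.10) were higher, a count of 3 that was 1 when either AAV9-hFNDC4 replicate 2 or AAV9-CTRL replicate 3 was left out; the length correction turned Aebp2 to -0.07. PRC1 genes, whose complex binds H3K27 methylation through its CBX subunits, were higher in 7 of 18 tested and lower in 2, among them Cbx2 (0.66, SE 0.11), Pcgf5 (0.57, SE 0.13) and Phc3 (1.03, SE 0.15), with Pcgf6 (-0.52, SE 0.13) and Phc2 (-0.33, SE 0.10) lower; Pcgf5 (0.29) and Pcgf6 (-0.33) did not pass with the length correction. The count of 2 lower was 1 in each fit that left out replicate 1 or 3 of either group. In the LSD1 CoREST complex 5 of 11 tested partners were higher (among them Phf21a with 1.04, Zmym2 with 0.46, Rcor3 with 0.36 and Rcor1 with 0.32) and 3 lower (Hmg20b with -0.78, Hdac2 with -0.47 and Hdac1 with -0.38). Of these 5, 1 (Phf21a) passed with the length correction, as did Hmg20b and Hdac2 of the lower genes, and 3 of the list were higher when replicate 3 of either group was left out.

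Other methylation enzymes outside the set also went both ways. Among 11 tested further lysine methyltransferase genes, Prdm9 (12.8 ± 1.62 against 5.94 ± 0.815 CPM, SD, n = 3, log2 fold change 1.11, SE 0.18), Mecom (0.86, SE 0.12) and Ash1l (0.45, and -0.03 length-corrected) were higher. Lower were Smyd2 (-0.50), Smyd4 (-0.43), Smyd5 (-0.68) and Prdm2 (-0.38), of which Smyd2 did not pass with the length correction (-0.20), a count of 4 that was 2 when AAV9-hFNDC4 replicate 1 or 3, or AAV9-CTRL replicate 1, was left out. Of 11 further Jumonji genes, Phf8 (0.58) and Phf2 (0.40), which encode H3K9 demethylases, were higher and did not pass with the length correction. Hif1an, the asparagine hydroxylase that restrains HIF1A in the presence of oxygen, was lower (-0.54, SE 0.13, edgeR adjusted p = 0.00510, and -0.78 length-corrected); without AAV9-hFNDC4 replicate 2 the lower count was 2. Jmjd6 (-0.39, SE 0.16) did not pass. Prmt1, the main arginine methyltransferase gene, was lower (-0.75, SE 0.11) and the other 7 of the 8 tested genes of its family did not pass, among them Prmt7 (-0.26), Prmt5 (-0.24) and Carm1 (-0.20). Without AAV9-CTRL replicate 2 the lower count was 4. The heterochromatin list had Trim28 lower (-0.73, SE 0.11) and Atf7ip (0.64) and Zfp644 (0.57) higher of 9, with 4 higher and 2 lower without AAV9-CTRL replicate 2; Uhrf1 (-0.28) did not pass. With the length correction Atf7ip did not pass (0.30). The DNA demethylation genes Tet1 (1.31, SE 0.30), Tet2 (0.86, SE 0.18) and Tet3 (0.37, SE 0.11) were higher, of which Tet2 passed with the length correction (0.47), and the 3 tested Dnmt genes did not pass (Dnmt1 at 0.14).

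**Figure D5:**
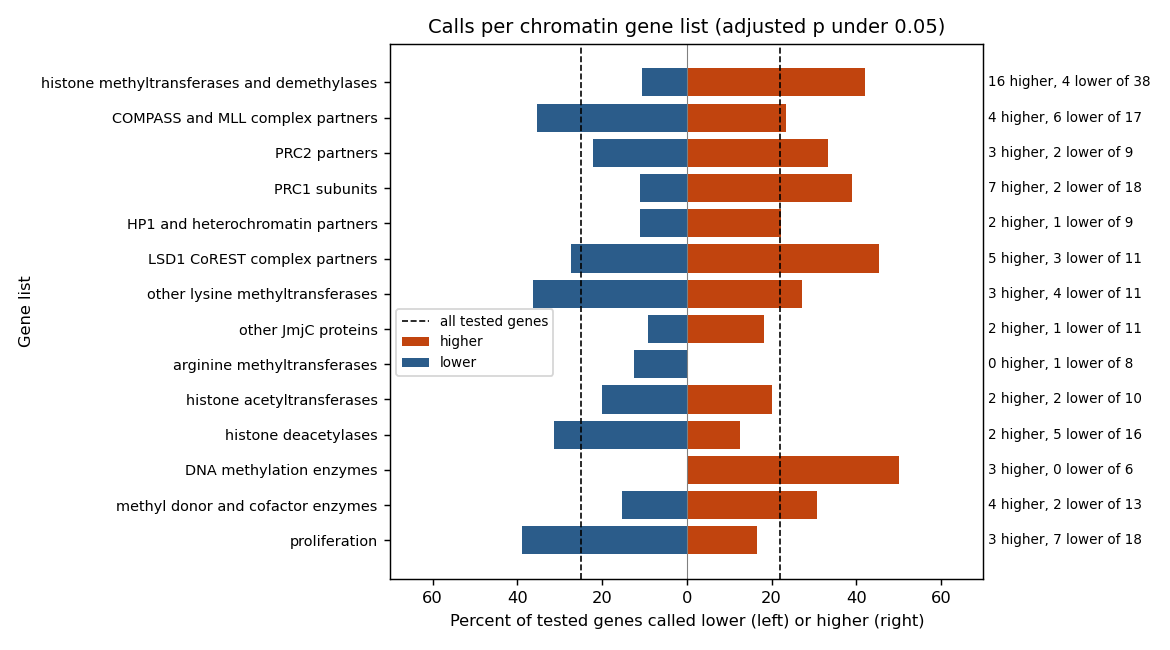
Percent of tested genes called higher (red, to the right) or lower (blue, to the left) in the methyltransferase and demethylase set and in each partner list, with counts at the right; dashed lines mark the shares over all tested genes (22.1% higher, 25.0% lower). The set has 16 higher and 4 lower of 38, and the COMPASS partners 4 higher and 6 lower of 17.

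Histone acetylation genes had Kat6b (1.16, SE 0.17) and Kat6a (0.89, SE 0.17) higher and Kat2a (-0.39, SE 0.10) and Hat1 (-0.38, SE 0.11) lower of 10, Hat1 not passing with the length correction (-0.15, adjusted p = 0.309); the higher count was 4 without AAV9-CTRL replicate 1, and the lower count was 1 when AAV9-hFNDC4 replicate 2 or 3, or AAV9-CTRL replicate 1 or 3, was left out. Of 16 tested deacetylase genes Hdac4 (1.22, SE 0.13) and Hdac11 (0.47, SE 0.17) were higher and 5 lower, Sirt1 (-0.98, SE 0.12), Hdac10 (-0.79, SE 0.14), Sirt7 (-0.62, SE 0.14), Hdac2 and Hdac1. Sirt7 and Hdac1 did not pass with the length correction (edgeR adjusted p = 0.0567 and 0.223). The higher count was 4 without AAV9-CTRL replicate 2 and 5 with the length correction. It was 1 when replicate 3 of either group, or AAV9-CTRL replicate 1, was left out. Of 13 genes that make methyl donors or cofactors, 4 were higher, among them Mtr (0.60), Ahcyl2 (0.73) and Ogdh (0.37), and 2 lower, Mthfd1 (-0.36) and Idh2 (-0.33). With the length correction Mtr (0.25), Ahcyl2 (0.48) and Idh2 (-0.05) did not pass (edgeR adjusted p = 0.114, 0.0954 and 0.745). In that fit 4 genes of the list were again higher, not all the same ones, and 1 was lower. The lower count was 2 without AAV9-CTRL replicate 2 and 0 or 1 without any other library, and the higher count was 2 without AAV9-CTRL replicate 3.

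Ezh2 and Kmt5a are genes whose levels go with the cell cycle, so proliferation genes were read beside them. Of 18 tested, 3 were higher and 7 lower. Mki67, the proliferation marker Ki-67, stood at 918, 830.1 and 943 CPM against 376, 317 and 269 CPM and rose by 1.48 (SE 0.13, edgeR adjusted p = 1.65e-05), with Top2a (0.61, SE 0.11) and Foxm1 (0.33, SE 0.10). The replication genes Mcm2 (-0.59, SE 0.12), Mcm3 (-0.48, SE 0.11), Mcm5 (-0.39, SE 0.11), Pcna (-0.46, SE 0.10) and Tyms (-0.43, SE 0.11) were lower, as were Ccnb2 (-0.51, SE 0.13) and Aurka (-0.42, SE 0.11), and Mcm2, Mcm3, Mcm5 and Tyms passed with the length correction, as did Mki67 and Top2a but not Foxm1 (0.23). The part of proliferation in the values of Ezh2 and Kmt5a was not tested.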

How the data were processed

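Per the labels' protocols, TRIzol was used for the RNA and the VAHTS Universal V6 kit for library preparation. The authors deposited raw read counts per gene symbol, 1 column per library, without normalization. The tools fastp, HISAT2, HTSeq, R 3.2.0 and DESeq2 and the build GRCm38 (mm10) are named per the submitters' processing notes; the sources used here do not give the annotation, strand setting and rule for shared reads.

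The analysis used R 4.3.3 and edgeR 4.0.16, with filterByExpr (14663 of 27482 genes kept), TMM scaling, a robust quasi-likelihood F test of 3 against 3 libraries, Benjamini-Hochberg adjustment over all genes tested and a threshold of 0.05. The SE is the log2 fold change divided by the square root of F. CPM values use TMM-scaled library sizes, and values after ± are SD. Exon lengths (union of exons), GC content and overlaps came from GENCODE vM21 basic, with 92.5% of tested genes and all 38 tested members matched by symbol or synonym. The length correction took a loess trend (span 0.4) of each library's log2 deviation on log2 length as an offset. Alternatives were RLE and upper-quartile scaling, other filters, DESeq2 1.42.0, limma-voom (limma 3.58.1), a replicate block, length and GC corrections, and leaving out each library. The fits were tested on simulated data.

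The members, gene lists and alternatives were chosen with earlier results of these data known. Named are all called members and their close paralogs, and of each partner list the 4 genes with the smallest p, apart from some partner genes that are not reported here; further called partner genes were named after their values were seen. Library pairs within a group differed by more than counting noise.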

Additional observations from a re-analysis of the deposited data

How the results depend on the processing

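The 16 higher and 4 lower genes became 9 and 8 with the length correction, and 6 and 4 with the length correction and the replicate block together, and the median log2 fold change of 0.26 became -0.0041 and 0.0014. The genes of the partner and other chromatin lists, 40 higher and 34 lower, became 21 and 14 in the latter fit. With the replicate block alone 14 of the 38 genes were higher and 4 lower, Ehmt1 and Nsd3 being lost. Of all genes called, 50.6% were higher with the length correction and the replicate block, and 46.4% with the replicate block alone. The share of all tested genes that was called is not given for these fits or the remaining alternatives. The changes in count are thus not read as particular to these genes. Deviations of same-numbered libraries correlated at -0.087, -0.202 and -0.059, and no library correlated best with its own number. With deviations centred within groups of 3 libraries, these values cannot decide whether a number marks a shared batch or day. With the length correction and the replicate block together, Kmt2c, Ezh1, Ezh2 and Kdm7a did not pass (edgeR adjusted p = 0.0785, 0.0836, 0.0930 and 0.0775). In the same fit Setd1a, Setd2 and Kdm5a, lower with the length correction alone, did not pass either (0.0563, 0.0585 and 0.0506). In the remaining alternatives 14 to 20 genes were higher and 4 to 6 lower. Upper-quartile scaling also called Setd7, Kdm1b and Kdm3b, and the GC correction also called Ehmt2, Kmt5c, Kdm3a, Kdm3b and Kdm6b but not Setd6.

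Signs changed in the genes below, of which Nsd2, Nsd3, Ash1l, Tet3 and Aebp2 were called higher without a length correction. With the length correction, then with the replicate block added, log2 fold changes were -0.053 and -0.047 (Setd7), -0.023 and -0.019 (Nsd2), -0.20 and -0.20 (Nsd3), -0.31 and -0.31 (Setd2), -0.23 and -0.22 (Dot1l), -0.24 and -0.24 (Kmt5b), -0.019 and -0.014 (Setd3), -0.077 and -0.076 (Kdm3b), -0.074 and -0.074 (Aebp2), -0.034 and -0.027 (Ash1l), -0.12 and -0.12 (Tet3), -0.095 and -0.11 (Dnmt1). The GC correction gave 0.16 (Kmt2b), 0.056 (Setd1a), 0.052 (Suv39h1) and -0.0067 (Setd2), and upper-quartile scaling 0.0056 (Kmt2b), 0.037 (Suv39h1) and 0.012 (Kdm5a). Leaving out each library in turn gave ranges of -0.14 to 0.052 (Kmt2b), -0.0086 to 0.19 (Ehmt2), -0.054 to 0.040 (Suv39h1), -0.046 to 0.16 (Setd2), -0.12 to 0.18 (Dot1l), -0.050 to 0.11 (Setd3) and -0.22 to 0.18 (Kdm5a). The cause of these changes was not tested. Counts of up to 9 per library for Nsd1 and Kdm4d are too few for a comparison.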
